A study of Rattus norvegicus with 6 samples.

Results

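The endothelial lipid uptake genes examined here were 10 genes taken by name from the 33566 rows of a gene count table: Lpl, Gpihbp1, Lipg, Cd36, Scarb1, Vldlr, Fabp4, Fabp5, Pparg and Angptl4. The table held RNA-seq counts of 6 libraries from primary rat brain microvascular endothelial cells (rBMECs), which were isolated from the cortex (labels) or forebrain (the paper's methods) of Sprague-Dawley (SD) rats aged 18 to 22 days, passaged once and kept in complete medium with endothelial growth supplements. In 3 libraries the cells had received homocysteine (Hcy) at 100 μM for 24 h according to the sample labels, and in the other 3 the water vehicle (Veh). The paper's methods give a lower Hcy concentration, which the labels also mention for the prepared solution, so the dose is given here as the labels state it for the cells. The 3 libraries of each group are described as biological replicates, although no source says whether they came from separate isolations, so the spread between them may be partly technical. The genes were selected on the same Hcy and Veh counts, by name and with a lower Lpl and a higher Vldlr in Hcy already seen. Their differences between the groups are therefore given as descriptions. How many of them met the thresholds of the genome-wide fit is stated once, and no support is drawn from it.

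Capillary endothelium takes up lipid by several routes. Lipoprotein lipase (Lpl) splits the triglyceride of circulating lipoproteins, and Gpihbp1 carries the enzyme across the endothelial cell and anchors it on the luminal surface. Endothelial lipase (Lipg) acts mainly on HDL phospholipid. Vldlr and Scarb1 bind lipoproteins, Vldlr the triglyceride-rich particles and Scarb1 HDL, whereas Cd36 takes up fatty acids. Fabp4 and Fabp5 carry fatty acids inside the cell, the nuclear receptor Pparg switches on several genes of this group, and Angptl4 is a secreted inhibitor of Lpl. The comparison asks how their transcripts stood in cells exposed to Hcy, a sulfur amino acid whose effect on the blood–brain barrier the study examines.

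Promoter sequence was available from RefSeq for 5 of the 10 genes. The windows of Vldlr and Angptl4 are shown because one is the receptor with the larger difference between the groups and the other is the most abundant gene of the group per length. Each is the 250 bases before the annotated gene start in build GRCr8, written 5′ to 3′ on the strand of the gene. Vldlr lies on the plus strand at chr1:234240436-234240685 and Angptl4 on the minus strand at chr7:15258682-15258931. Capitals mark matches, on either strand, to 5 short motifs: the hypoxia response core ACGTG, the nuclear receptor core AGGTCA, the GC box GGGCGG, the AP-1 site TGACTCA and the TATA motif TATAAA.
Vldlr: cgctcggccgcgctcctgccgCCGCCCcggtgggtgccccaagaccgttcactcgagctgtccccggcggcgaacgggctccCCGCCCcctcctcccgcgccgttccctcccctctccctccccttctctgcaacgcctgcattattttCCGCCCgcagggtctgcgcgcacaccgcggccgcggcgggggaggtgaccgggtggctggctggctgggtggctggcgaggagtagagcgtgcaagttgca
Angptl4: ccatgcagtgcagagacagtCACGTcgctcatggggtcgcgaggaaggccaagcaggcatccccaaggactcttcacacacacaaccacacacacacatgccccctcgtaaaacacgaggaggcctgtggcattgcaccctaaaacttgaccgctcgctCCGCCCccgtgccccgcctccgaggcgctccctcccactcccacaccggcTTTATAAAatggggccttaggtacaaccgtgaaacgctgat

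The Vldlr window held 3 GC boxes, all on the opposite strand, which began at positions -229, -168 and -101 from the gene start. None of the other 4 motifs matched in it. The Angptl4 window held a hypoxia core at -230 and a GC box at -91, both on the opposite strand, and TATA matches at -41 and -39 that overlap on the 2 strands. The GC box occurred in 30.5% of the 33469 RefSeq windows of this length, the hypoxia core in 16.6%, the TATA motif in 12.9%, the nuclear receptor core in 14.1% and the AP-1 site in 4.05%. The GC content of the Vldlr window was 73.6%, against a median of 51.2% over all windows. These matches describe letters only, and no binding was measured here.

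The libraries held between 14024997 and 16764584 counted reads. Levels are given as CPM, counts per 1000000 counted reads after scaling with TMM factors, and 3 counts, or 0.178 to 0.215 CPM, were taken as the floor of detection, which covers counting error only. Over 12296 genes, Hcy and Veh separated on the first principal component (30.5% of the variance). On the second (26.2%) Veh replicate 3 lay at 30.4 and the other libraries between -19.0 and 9.98. Of 14 brain endothelial markers, 12 had a row under their symbol, and their summed level was 9955 to 10391 CPM in Hcy and 8664 to 10085 CPM in Veh. The 11 of them tested went both ways, 6 higher and 5 lower in Hcy, from -0.53 for the transporter Slco1a4 to 0.37 for the VEGF receptor Kdr on the log2 scale. The smallest adjusted p in edgeR's test was 0.0536, for the glucose transporter Slc2a1 at -0.32. Cldn5, a defining tight junction gene of brain endothelium, was at 0 counts in all 6 libraries, and Pecam1 and Abcb1a had no row under those symbols.

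Of the 10 genes, 9 had a row and 7 reached the 10 summed counts needed for the genome-wide edgeR quasi-likelihood fit. Among those 7, Lpl alone met both thresholds of the study, an adjusted p up to 0.05 and a fold of 2 or more either way (1 on the log2 scale). Of the 14603 genes tested 0.486% met both, 0.233% as lower in Hcy. With the adjusted p alone, Lpl and Vldlr passed, where the share of all genes was 2.34%. In 6 of the 7 no Hcy library fell within the range of Veh, and this held for 20.1% of all genes tested. With DESeq2, and with Veh replicate 3 left out, Angptl4 also met the adjusted p. Nothing is read from these counts, because the choice of genes used the same contrast.

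The table places Lpl on the minus strand of chromosome 16, between 22537056 and 22561496. It stood at 21.0, 21.4 and 23.4 CPM in Hcy replicates 1 to 3 and at 49.6, 47.2 and 46.6 CPM in Veh replicates 1 to 3. All Hcy libraries lay below all Veh libraries, and the gap between the groups was many times the spread within either of them. The group mean of Hcy was 21.9 ± 1.28 CPM (SD, n = 3) and that of Veh 47.8 ± 1.57 CPM (SD, n = 3). Lpl thus fell 2.18-fold, a log2 fold change of -1.12 (standard error 0.08). Leaving out each library in turn kept this value between -1.17 and -1.09. The counts behind it ran from 293 to 392 in Hcy and from 673 to 835 in Veh.

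Gpihbp1, the anchor of Lpl, rested on few reads. The Hcy libraries counted 63, 54 and 72 reads of it, and the Veh libraries 26, 46 and 52. Its level was 4.52, 3.63 and 4.30 CPM in Hcy and 1.54, 2.93 and 3.60 CPM in Veh. The groups nearly touched, since the lowest Hcy library was barely above the highest Veh library, and Veh replicate 1 was the low one. The means were 4.15 ± 0.466 CPM (SD, n = 3) and 2.69 ± 1.05 CPM (SD, n = 3). On the log2 scale the difference was 0.63 (standard error 0.30). It was 0.35 without Veh replicate 1 and 0.89 without Veh replicate 3. Lipg, the other lipase, had 0 counts in all 6 libraries, which allows a level of up to 0.178 to 0.215 CPM.

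**Figure D1:**
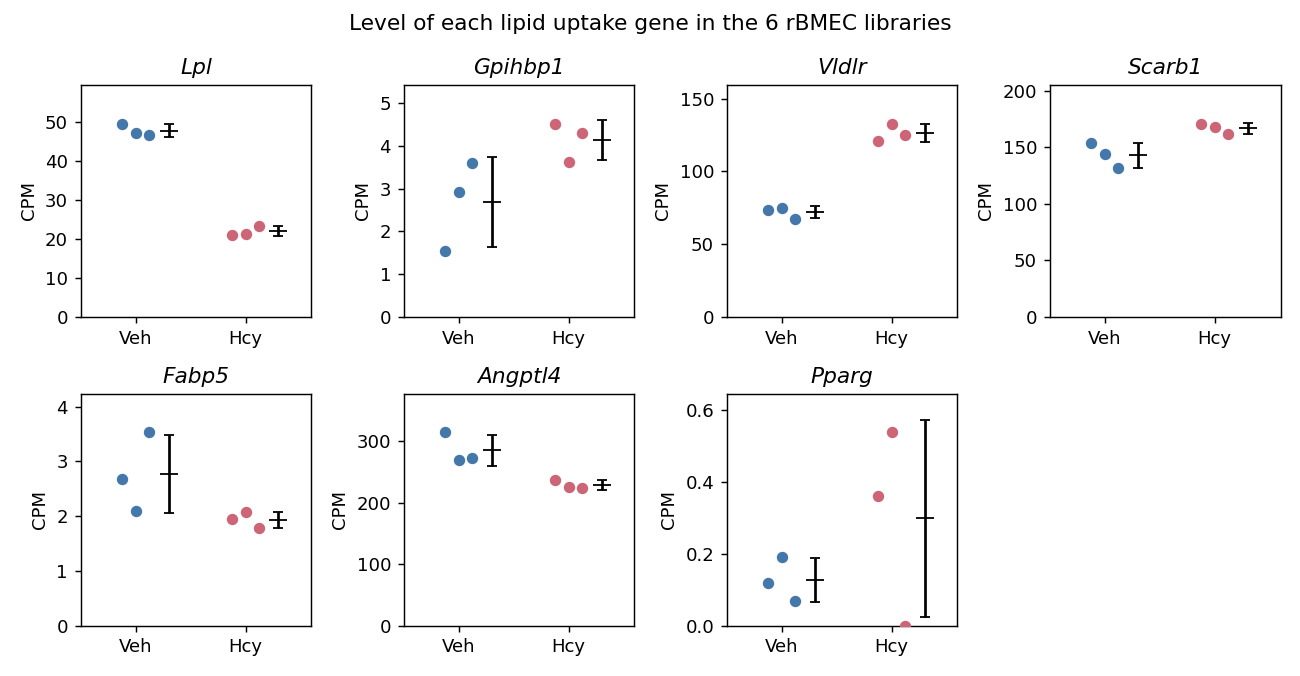
Level in CPM (vertical axis, from 0, scaled per gene) of the 7 genes with enough counts, in the Veh (blue) and Hcy (red) libraries. Points are libraries and bars the mean ± SD of 3. The Lpl points lie at 46.6 to 49.6 CPM in Veh and 21.0 to 23.4 CPM in Hcy, and the Vldlr points at 67.3 to 75.0 and 121 to 133 CPM.

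The table places Vldlr on the plus strand of chromosome 1, between 245237736 and 245269205. Its level was 121, 133 and 125 CPM in Hcy and 73.3, 75.0 and 67.3 CPM in Veh. Each Hcy library lay well above each Veh library. The means were 126 ± 6.03 CPM (SD, n = 3) and 71.9 ± 4.06 CPM (SD, n = 3), so Vldlr rose 1.76-fold. Its log2 fold change was 0.81 (standard error 0.08). The value ran from 0.77 without Veh replicate 3 to 0.84 without Veh replicate 2.

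Scarb1, the HDL receptor, was present in every library. Its level was 171, 168 and 162 CPM in Hcy and 154, 144 and 132 CPM in Veh. The groups did not overlap, and the Veh libraries lay further apart than the Hcy libraries, with means of 167 ± 4.70 CPM (SD, n = 3) and 143 ± 11.1 CPM (SD, n = 3). This difference was 0.22 on the log2 scale (standard error 0.08), and 0.17 without Veh replicate 3. Scarb1 and Vldlr stood in the same direction, and per kilobase Scarb1 exceeded Vldlr 2.70-fold in Veh and 1.80-fold in Hcy.

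Cd36 had no row under its symbol. The table carried 5 rows on chromosome 4 whose description names the rat CD36 protein, listed as RGD1565355, AABR07059308.1, LOC103690020, AABR07059372.2 and AABR07059372.1. Together they held 2 counts over the 6 libraries, both in Hcy replicate 2 and both on RGD1565355. Several of these rows overlap in position, so reads could have been left out as ambiguous, and a level of Cd36 is not given.

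Of the fatty acid binding proteins, Fabp4, the form common in peripheral capillaries and fat, had 1 count in Hcy replicate 2 and 1 in Veh replicate 1. It was under the floor in all 6 libraries. Fabp5 was low but measurable, at 1.94, 2.08 and 1.79 CPM in Hcy and 2.67, 2.10 and 3.53 CPM in Veh. The ranges came within a few counts of each other, with at most 31 counts in Hcy and at least 33 in Veh. The means were 1.94 ± 0.146 CPM (SD, n = 3) and 2.77 ± 0.719 CPM (SD, n = 3), and the log2 fold change was -0.51 (standard error 0.26). It ran from -0.68 without Veh replicate 2 to -0.30 without Veh replicate 3. The table lists 3 more rows with the Fabp5 protein match, all at 0 counts. Whether reads shared with them were left out of the counting is not given in the sources used here.

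For Pparg the Hcy libraries counted 5, 8 and 0 reads and the Veh libraries 2, 3 and 1. The Hcy libraries spanned the whole range from none to the highest count, and the groups overlapped. Only Hcy replicates 1 and 2 were above the floor of 3 counts. Its fitted log2 fold change was 1.14 with a standard error of 1.04, and it was 0.38 without Hcy replicate 2 and 1.75 without Hcy replicate 3. A difference in Pparg was not detectable at this depth.

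Angptl4, the Lpl inhibitor, was the most abundant gene of the group per kilobase. It stood at 238, 225 and 224 CPM in Hcy and 315, 270.1 and 272 CPM in Veh. All Hcy libraries were below all Veh libraries, and Veh replicate 1 was the highest. The means were 229 ± 7.76 CPM (SD, n = 3) and 286 ± 25.1 CPM (SD, n = 3), and the log2 difference was -0.32 (standard error 0.08). Without Veh replicate 1 it was -0.24.

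**Figure D2:**
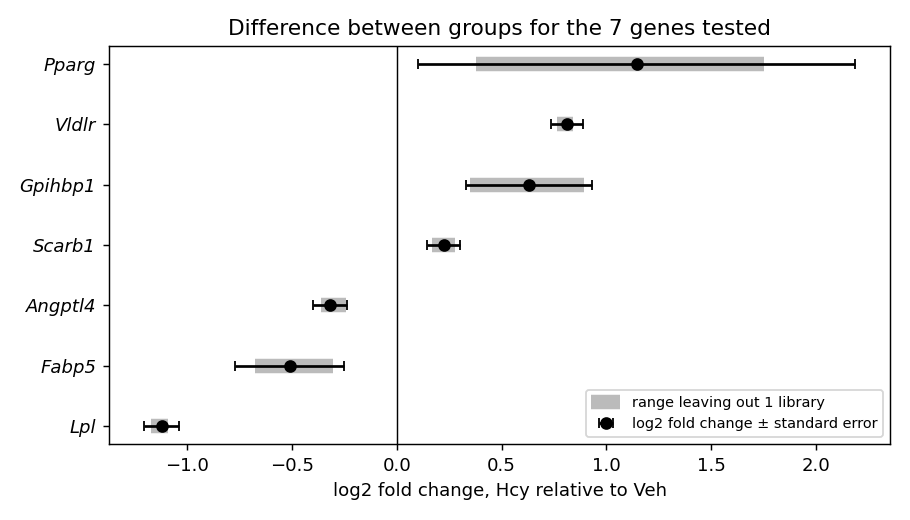
Log2 fold change in Hcy relative to Veh (horizontal axis) of the 7 genes in the fit. Points with bars give the value ± its standard error, and grey bars the range when each library is left out in turn. Lpl at -1.12 and Vldlr at 0.81 have narrow ranges, and Pparg at 1.14 has a range of 0.38 to 1.75.

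Levels were compared between genes only per length, as CPM per kilobase of the gene length in the table. In Veh the order was Angptl4 (151 ± 13.3, SD, n = 3), Scarb1 (56.7 ± 4.40), Vldlr (21.0 ± 1.19), Lpl (13.0 ± 0.429), Fabp5 (3.83 ± 0.994) and Gpihbp1 (3.28 ± 1.28). Among neighbours in this order only Fabp5 and Gpihbp1 had overlapping libraries. In Hcy the first 4 places were the same, with Angptl4 at 121 ± 4.11, Scarb1 at 66.2 ± 1.86, Vldlr at 36.9 ± 1.76 and Lpl at 5.97 ± 0.348. Gpihbp1 followed at 5.06 ± 0.569 and Fabp5 at 2.68 ± 0.202, so those genes exchanged places, and no neighbours among these 6 overlapped. Pparg and Fabp4 came after them in both groups and overlapped with each other, and Lipg was at 0. Of the 14603 genes tested, 95.5% had a lower mean over the 6 libraries, per kilobase, than Angptl4, 90.1% than Scarb1, 80.2% than Vldlr, 58.7% than Lpl, 42.1% than Gpihbp1 and 38.2% than Fabp5.

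**Figure D3:**
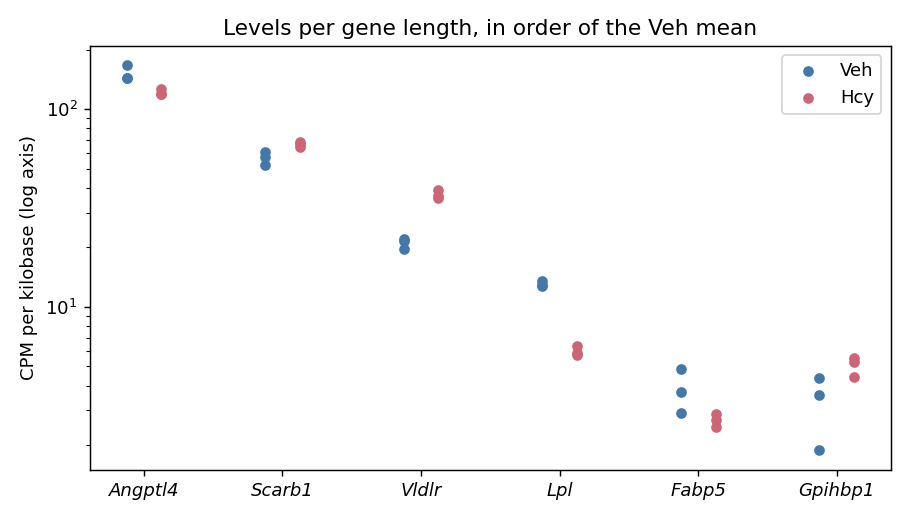
Level per gene length in CPM per kilobase (vertical log axis) of the 6 most abundant genes, ordered by their Veh mean, with 1 point per library (Veh blue, Hcy red). Angptl4 lies highest in both groups, and Lpl drops from 13.0 in Veh to 5.97 in Hcy, close to Gpihbp1.

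Ratios between genes of the same library do not depend on how libraries were scaled. Lpl and Vldlr were chosen with their fall and rise already seen, so the direction of their ratio follows from that choice. The ratios of Lpl to Angptl4 and to Gpihbp1 use the same lower Lpl. The Vldlr to Lpl ratio, per kilobase, was 6.18, 6.68 and 5.73 in Hcy and 1.59, 1.71 and 1.55 in Veh. The receptor thus outnumbered the lipase in every library, by 6.19 ± 0.477 (SD, n = 3) in Hcy and 1.62 ± 0.0808 (SD, n = 3) in Veh. The ratio of Lpl to its inhibitor Angptl4 was 0.0455, 0.0488 and 0.0537 in Hcy and 0.0810, 0.0899 and 0.0880 in Veh, so it was lower in every Hcy library although both genes were lower there. The ratio of Lpl to its anchor Gpihbp1 was 1.04, 1.32 and 1.22 in Hcy and 7.17, 3.60 and 2.89 in Veh. Lpl and Gpihbp1 transcripts were therefore near parity in Hcy. In Veh the ratio was highest in replicate 1, which had the fewest Gpihbp1 counts. At 3.60 and 2.89, Veh replicates 2 and 3 were also above every Hcy library. These are ratios of transcripts, and protein was not measured here.

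**Figure D4:**
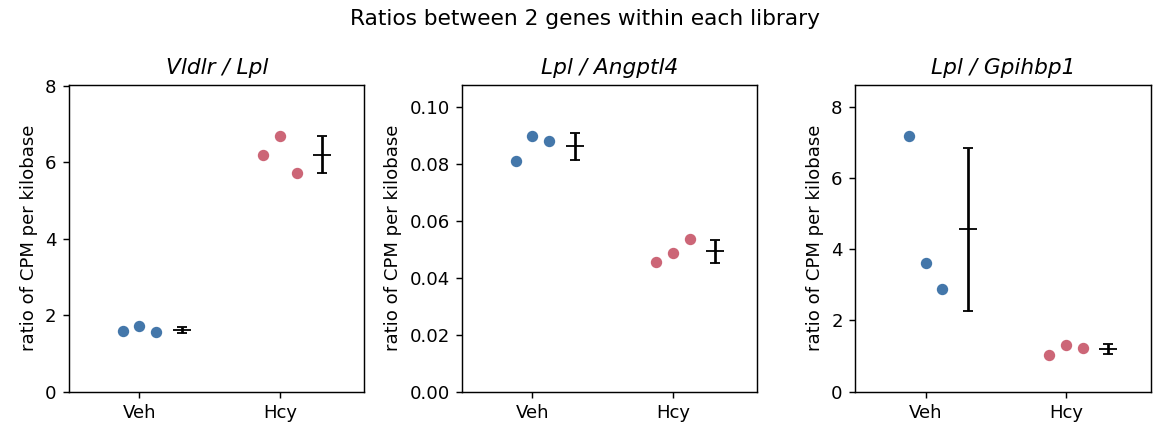
Ratios of CPM per kilobase between pairs of genes (vertical axes, from 0) in the Veh (blue) and Hcy (red) libraries, with the mean ± SD of 3. The Vldlr to Lpl ratio is 1.55 to 1.71 in Veh and 5.73 to 6.68 in Hcy, and both ratios of Lpl to a partner are lower in every Hcy library. The genes were chosen with the lower Lpl and higher Vldlr in Hcy already seen.

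Markers of other cells that express these genes were read beside the values. Lpl and Pparg are also genes of macrophages and adipocytes. The 9 macrophage and microglia markers summed to 1.68 to 2.66 CPM in Hcy and 1.45 to 1.98 CPM in Veh, with Ptprc, Cx3cr1, Tyrobp and P2ry12 at 0 in all libraries. The 6 adipocyte markers summed to 0.418 to 0.940 CPM in Hcy and 0.573 to 0.950 CPM in Veh, with Cfd at 0. The 4 neuron markers summed to 1.75 to 2.63 CPM in Hcy and 1.08 to 1.37 CPM in Veh. All of this was Syt1, at 0.85 on the log2 scale, which did not pass (adjusted p = 0.195 in edgeR's test). The neuron markers Rbfox3, Snap25 and Map2 were at 0 in all libraries. The 10 pericyte and smooth muscle markers summed to 674 to 699.9 CPM in Hcy and 1104 to 1330.2 CPM in Veh. Nearly all of this sum was 2 genes, which fell by the adjusted p. These were the contractile genes Tagln (-0.88 on the log2 scale, adjusted p = 0.000801) and Acta2 (-0.64, adjusted p = 0.0248) in edgeR's quasi-likelihood test. The other 8 markers, Pdgfrb, Cspg4, Rgs5, Kcnj8, Abcc9, Notch3, Des and Myh11, did not pass, and each had a mean of at most 2.72 CPM in either group. Of these 8, 6 had a value above 0 on the log2 scale, from 0.44 for Notch3 to 1.66 for Cspg4, the opposite sign to Tagln and Acta2. The 4 fibroblast markers with a row summed to 35.7 to 57.8 CPM in Hcy and 57.5 to 83.9 CPM in Veh, nearly all of it Col1a1, a collagen chain, at -0.52 on the log2 scale (adjusted p = 0.264 in edgeR's test). The part of these markers in the lower Lpl was not tested. In bulk RNA, fewer cells that hold a transcript and less of it per cell cannot be told apart.

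Genes nearest to Lpl and Vldlr in profile were found among 11787 genes with a mean of at least 1 CPM, by the root mean square difference of log2 CPM centred over the 6 libraries. Nearest to Lpl were Tnfsf18, a TNF family ligand, at 0.0341, Timp2, a metalloproteinase inhibitor, at 0.0865, and Hmox1, which encodes heme oxygenase 1, at 0.0882. The Veh mean of Tnfsf18 was 244 ± 1.19 CPM (SD, n = 3) and its Hcy mean 109.6 ± 5.55 CPM (SD, n = 3), with the same slight lift in Hcy replicate 3 as Lpl. Nearest to Vldlr were Fads1, a fatty acid desaturase, at 0.0585, Lamb1, a laminin chain, at 0.0603, and Clspn, a replication checkpoint protein, at 0.0643. For Lamb1 the Veh mean was 714 ± 54.9 CPM (SD, n = 3) and the Hcy mean 1213 ± 8.47 CPM (SD, n = 3). For Fads1 these were 8.22 ± 0.769 and 15.1 ± 0.405 CPM. The measure rests on the same 6 libraries as the comparison, so the difference between the groups is part of it.

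Outside the 10 genes, 125 other genes of lipid handling were listed in 8 groups, and 101 of them were tested. None passed both thresholds in edgeR's quasi-likelihood test, 20 (of all genes tested, 13.4%) had an unadjusted p under 0.05, and DESeq2 called 1. By the adjusted p alone 1 rose and 2 fell, where 1.32% of all genes tested rose and 1.01% fell. The median log2 fold change of the 101 was 0.04, and that of all genes tested was -0.02.

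Among lipoprotein receptors and their helpers, 12 of 16 were tested and 1 fell. This was Lsr, the lipolysis-stimulated lipoprotein receptor, at 14.9, 12.6 and 15.2 CPM in Hcy and 24.9, 21.5 and 24.3 CPM in Veh. No Hcy library reached the lowest Veh library. On the log2 scale it differed by -0.73 (standard error 0.12, adjusted p = 0.0156 in edgeR's test). Over the alternatives the adjusted p of Lsr ran from 9.24e-05 to 0.0799, and with a library left out it missed the threshold in 4 of 6 fits, while the log2 value stayed between -0.79 and -0.65. The scavenger receptor Stab1, among the receptors of highest CPM, was at 0.17 on the log2 scale and did not pass edgeR's test (adjusted p = 0.623). It was 0.034 without Veh replicate 3 and 0.28 without Veh replicate 1.

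Of the fatty acid carriers and acyl-CoA synthetases, 12 of 20 were tested and 1 fell. Slc27a3, a fatty acid transport protein of the Slc27 family, was at 19.9, 15.6 and 16.3 CPM in Hcy and 28.9, 29.0 and 29.4 CPM in Veh. The Veh libraries lay within 1 CPM of each other and above all Hcy libraries. The log2 value was -0.75 (standard error 0.11, adjusted p = 0.0126 in edgeR's test). The adjusted p of Slc27a3 ran from 8.63e-06 to 0.0825 over the alternatives and, with a library left out, missed the threshold in 3 of 6 fits, while the log2 value stayed between -0.87 and -0.69. Cav1, which encodes the coat protein of caveolae, had the highest CPM of this list, with a Hcy mean of 3471 ± 58.2 CPM (SD, n = 3) and a Veh mean of 3462 ± 71.1 CPM (SD, n = 3). On the log2 scale the difference was 0.0036 (standard error 0.06), under its own error and of a sign that changed with the library left out. Acsl5, an acyl-CoA synthetase, had a log2 fold change of -0.04 (adjusted p = 0.896 in edgeR's test), with a sign that changed without Veh replicate 3.

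Upstream regulators of endothelial fatty acid transport had the largest median log2 fold change of the lists, 0.21, with 9 of 11 genes higher in Hcy, as were 46.9% of all genes tested. In this list 1 gene rose by the adjusted p and 5 had an unadjusted p under 0.05, where the share of all genes was 13.4%, and the list itself was not tested. Nrp2, a co-receptor for VEGF and semaphorin ligands, was at 67.4, 67.6 and 58.9 CPM in Hcy and 42.2, 40.6 and 31.8 CPM in Veh. Replicate 3 was the lowest in each group, and the groups did not overlap. It was higher in Hcy by 0.76 on the log2 scale (standard error 0.12, adjusted p = 0.0128 in edgeR's test). The adjusted p of Nrp2 ran from 9.56e-07 to 0.0762 over the alternatives. With a library left out 2 of 6 fits missed the threshold, while the log2 value stayed between 0.64 and 0.84. Apln, the ligand apelin, had the highest CPM of the list, with a Hcy mean of 5021 ± 54.8 CPM (SD, n = 3) and a Veh mean of 4469 ± 50.2 CPM (SD, n = 3). The difference of 0.17 (log2) did not pass (adjusted p = 0.191), but did without Veh replicate 3 (adjusted p = 0.0342, with a range up to 0.496 over the alternatives). Flt1, a VEGF receptor, differed by 0.25 (log2, adjusted p = 0.267 in edgeR's test) and did not pass. It was 0.16 without Veh replicate 3.

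In the 5 remaining lists no gene passed the adjusted p in edgeR's test. These were lipases and lipase regulators (13 tested, 2 with an unadjusted p under 0.05, median log2 fold change 0.12) and PPAR receptors, partners and targets (13 tested, 2 with an unadjusted p under 0.05, median -0.03). Lipid droplet and triglyceride synthesis had 16 tested, 2 with an unadjusted p under 0.05 and a median of -0.15, and mitochondrial fatty acid oxidation had 17 tested, 2 under that p and a median of 0.06. Sterol efflux had 7 tested, 1 under that p and a median of 0.035. Sel1l, which serves the folding of lipases in the endoplasmic reticulum, had a log2 fold change of -0.16 and passed only without Veh replicate 3, at -0.29 (adjusted p = 0.0166, with a range up to 0.865 over the alternatives). Without Veh replicate 1 its value was -0.0785. Furin, a protease that cleaves Lpl and Angptl proteins, had a log2 fold change of 0.13, which was 0.023 without Veh replicate 3 and 0.22 without Veh replicate 1. Ucp2, among those of highest CPM in the PPAR list, was at -0.10, and ran from -0.18 without Veh replicate 2 to -0.011 without Veh replicate 3. Gpat4 and Lpin3, enzymes of triglyceride synthesis, were at 0.08 and 0.19. With a library left out, Gpat4 ran from 0.036 without Hcy replicate 1 to 0.124 without Hcy replicate 2. The trifunctional protein subunits Hadha and Hadhb were at 0.09 and 0.12, and the sterol carriers Abcg1 and Npc2 at -0.07 and 0.035. With a library left out, Abcg1 ran from -0.13 without Veh replicate 3 to -0.026 without Veh replicate 1, and Npc2 changed sign without Hcy replicate 1. None of these last 8 genes, from Furin on, passed the adjusted p under any of the 13 alternatives.

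**Figure D5:**
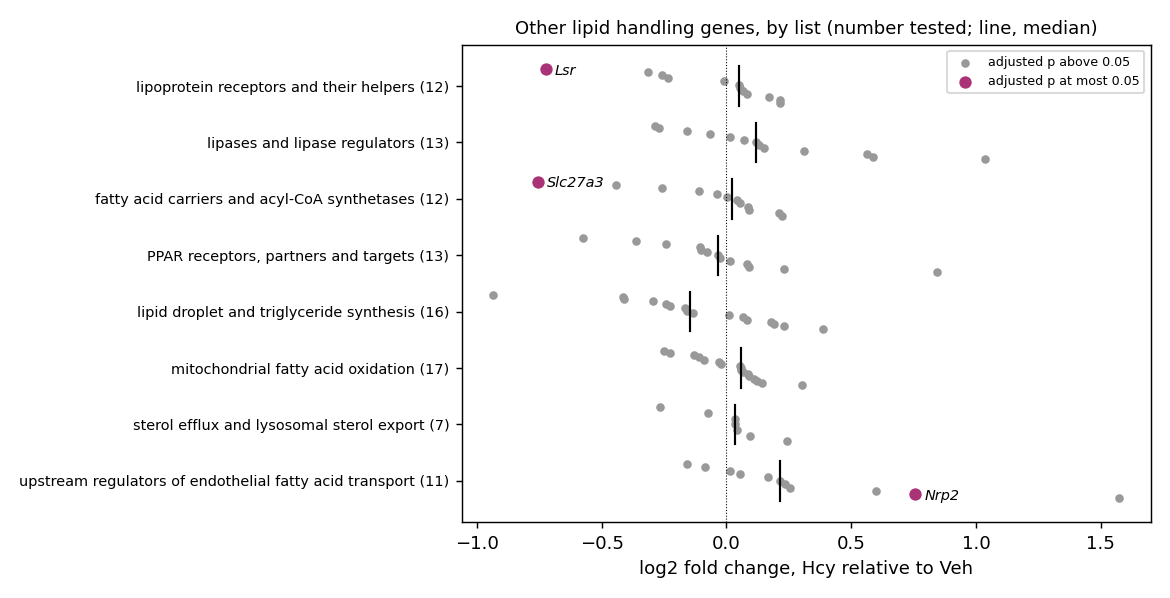
Log2 fold change in Hcy relative to Veh (horizontal axis) of the 101 other lipid handling genes tested, by list, with the number tested in brackets and the median as a line. The coloured points, Lsr at -0.73, Slc27a3 at -0.75 and Nrp2 at 0.76, passed the adjusted p, and the grey points did not.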

How the data were processed

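For 6 poly(A) RNA-seq libraries, 3 Hcy and 3 Veh, the gene table deposited by the authors holds raw read counts. The submitters' processing notes name fastp, HISAT2 2.2.1, StringTie 2.2.3, Cufflinks and featureCounts 2.0.6, and DESeq2 1.42.0, without saying whether strand was used. They name mRatBN7.2, but the table names no build and its chromosome 1 positions run past the end of that chromosome in mRatBN7.2, so positions are given as listed. A second deposited table holds the authors' own fold changes, p-values and normalized values and was not used here.

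Genes with at least 10 summed counts were kept (14603). Groups were compared with edgeR 4.0.16 (R 4.3.3, limma 3.58.1), with TMM factors, the quasi-likelihood test, condition as the only term, Benjamini-Hochberg adjustment over all genes and a prior count of 0.125. The depth, 14024997 to 16764584 counts per library, sets a floor of 3 counts. The 13 alternatives changed the test (DESeq2 1.42.0), scaling, count filter, prior count or replicate block, or left out a library.

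Genes named were the 10 members, up to 4 genes of each list passing the adjusted p, its 2 of highest CPM (some are not reported here), and the 3 nearest in profile to Lpl and to Vldlr. Members and lists were chosen with earlier results of these data known. The fits were tested on simulated data.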

Additional observations from a re-analysis of the deposited data

How the results depend on the processing

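Lpl kept a log2 fold change between -1.17 and -1.09 and Vldlr one between 0.77 and 0.84 over all 13 alternatives, values of the contrast on which they were chosen. The count over all genes went from 71 to 109 without a filter beyond a count above 0, and from 39 to 112 with each library left out, highest without Veh replicate 3. By the adjusted p alone it was 341, 612 with DESeq2, and 80 to 957 with a library left out, again highest without Veh replicate 3. Of the other lipid genes, both thresholds passed 1 with DESeq2 (Aplnr) and 0 to 1 with a library left out (Pnpla2, without Veh replicate 1). The adjusted p alone passed 3, 6 with DESeq2, and 0 to 10 with a library left out, 0 without Hcy replicate 2 and 10 without Veh replicate 3. Signs changed with a library left out for Acsl5 (-0.088 to 0.034), Cav1 (-0.010 to 0.021) and Npc2 (-0.0049 to 0.088). With the replicate block, 82 genes passed both thresholds and 298 the adjusted p alone, Lpl was at -1.12 and Vldlr at 0.81, and Apoe was added to Lsr, Slc27a3 and Nrp2. Same-numbered libraries deviated together with a mean correlation of 0.083 across genes, over 0.1 in 1 of 3 pairs, so the numbers were not taken as pairs. The cause of these shifts was not tested. Lipg and Fabp4 were under the floor in all 6 libraries and Pparg was at or under it in 4.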

Other observations

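The following values, chosen after they were seen, are of other lipid genes. Pnpla2, which encodes adipose triglyceride lipase, had 487 counts in Veh replicate 1 but 59 and 27 in Veh replicates 2 and 3, against 330, 337 and 425 in Hcy, so its group mean in Veh, 11.5 ± 15.1 CPM (SD, n = 3), describes none of the libraries. Aplnr, the apelin receptor, had 30, 31 and 39 counts in Hcy and 5, 18 and 11 in Veh, a difference of 1.57 on the log2 scale (standard error 0.42, adjusted p = 0.111 in edgeR's quasi-likelihood test), and it was higher in all 3 Hcy libraries than in any Veh library. Apoe, an apolipoprotein bound by lipoprotein receptors, was at 47.9, 37.2 and 45.3 CPM in Hcy and 32.1, 22.7 and 33.6 CPM in Veh, which did not pass (adjusted p = 0.124 in the same test). It passed the adjusted p with DESeq2, with no filter beyond a count above 0, with the replicate block and without Veh replicate 3.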
